A study of Mus musculus with 7 samples.

Results

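The members of the albumin gene family taken here were 4 genes on mouse chromosome 5, namely Alb, Afp, Afm and Gc. CTCF and cohesin binding around these genes was taken from chromatin immunoprecipitation followed by sequencing (ChIP-seq) of livers of male CD-1 mice (the outbred strain Crl:CD1(ICR)) at 8 weeks of age. The mice carried no engineered allele and the labels name no treatment. CTCF was precipitated in 4 libraries and Rad21, which is part of the cohesin ring, in 3, and these 2 targets are the only groups. The files hold 1 pooled list of peaks per antibody and 1 list of classified CTCF sites, so that no value per library and no spread between mice can be given. Every peak that touched a member gene or the 100 kb on either side of it was taken, in coordinates of mouse build mm9 (NCBIM37) with gene models of GENCODE vM1. That left 38 of 76683 CTCF peaks, 52 of 67369 Rad21 peaks and 27 of 52436 classified CTCF sites. Alb (ENSMUSG00000029368.9, chr5:90889915-90905629), Afp (ENSMUSG00000054932.3, chr5:90919740-90937933) and Afm (ENSMUSG00000029369.10, chr5:90947958-90982569) lie side by side on the + strand, and their windows joined into 1 locus of 293 kb. Gc (ENSMUSG00000035540.7, chr5:89846549-89886790) lies on the − strand in a window of 240 kb, and the stretch between the windows measured 803 kb.

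The 4 genes arose by duplication of 1 ancestral gene and encode related transport proteins that hepatocytes secrete into plasma. Albumin is the most abundant plasma protein and carries fatty acids, alpha-fetoprotein (Afp) takes that place in the fetus and its gene is shut down in liver after birth, afamin (Afm) binds vitamin E, and the Gc product is the vitamin D-binding protein. CTCF is a zinc finger protein that binds a long, directional motif. Cohesin is a ring-shaped complex that moves along chromatin and is held at CTCF sites, so that loops form most often between CTCF sites whose motifs point towards each other. Cohesin also gathers at enhancers and other active elements without CTCF, and such sites are called CNC (cohesin-non-CTCF) sites.

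In the maps of both loci the strongest CTCF peak and the strongest Rad21 peak stood at anchors, and the space between the anchors around the starts of Alb and Afp held weaker peaks, many of them CNC. An anchor is a CTCF site that the authors placed at the edge of a topologically associating domain (TAD anchor) or of a loop predicted within one (intra-TAD anchor). The deposited score is 10 times the −log10 of the q-value, cut to a whole number. A CTCF and a Rad21 peak sharing at least 1 bp were taken as co-bound. The authors chose anchors partly by score, motif strand and distance to a domain boundary, so these features of the anchors describe the selection.

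**Figure D1:**
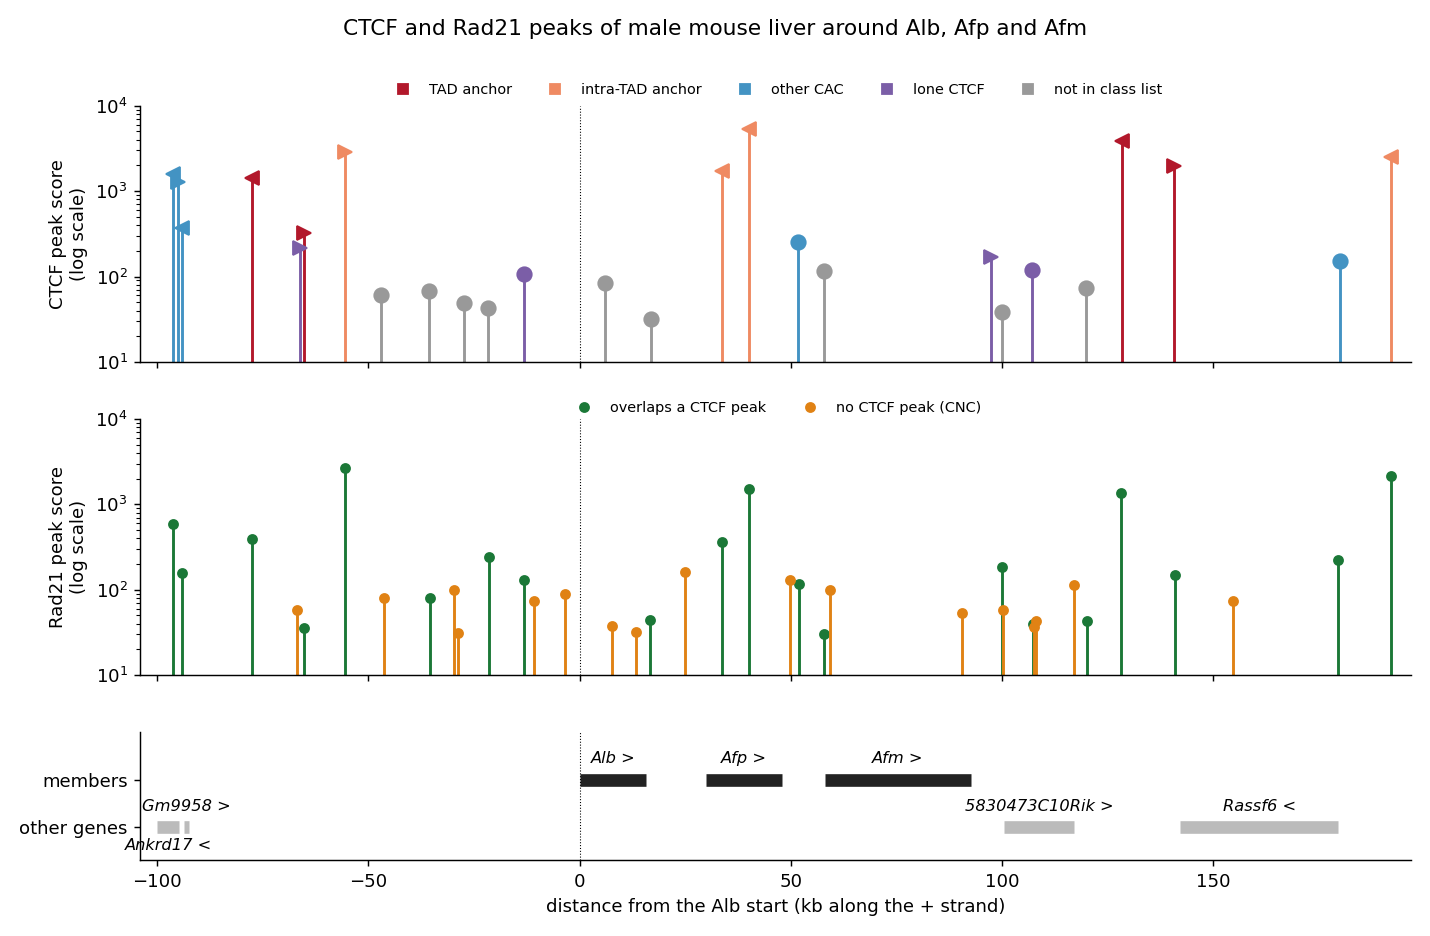
Pooled CTCF peaks (upper panel, coloured by class, with arrowheads giving the strand of the deposited motif and circles for peaks without one) and Rad21 peaks (middle panel, green where a CTCF peak overlaps and orange for CNC) along the Alb-Afp-Afm locus. The horizontal axis is the distance from the Alb start in kb along the + strand, the vertical axes are peak scores on a log scale, and the lowest panel shows gene spans with their direction. Between the intra-TAD anchors 55.5 kb upstream and 33.7 kb downstream of the Alb start, no CTCF score was above 107.

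The sequences under the anchors that bound the gene starts show the direction of each site. Each is printed 5′ to 3′ on the strand of its motif with the 19 bases matched by a CTCF matrix in capitals and flanks in lower case, and the strand in brackets is that of the reference. The matrix was learnt from 2000 TAD anchors of other chromosomes. It gave the deposited strand at 97.6% of 3079 sites of chromosome 5 that have a deposited motif, at 22 of 22 such sites of these loci and at 12 of 12 anchors. The centre of the match lay at most 31 bp from the summit at the anchors.
Intra-TAD anchor upstream of Alb, chr5:90834406-90834444 (+ strand): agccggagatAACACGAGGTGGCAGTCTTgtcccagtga
Intra-TAD anchor in Afp intron 3, chr5:90923606-90923644 (− strand): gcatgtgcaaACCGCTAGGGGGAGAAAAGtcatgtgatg
Intra-TAD anchor in Afp intron 7, chr5:90929938-90929976 (− strand): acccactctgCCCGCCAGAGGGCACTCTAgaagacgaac
TAD anchor beyond Afm, chr5:91018139-91018177 (− strand): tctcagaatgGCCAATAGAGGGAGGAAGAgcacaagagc
Intra-TAD anchor in Gc intron 1, chr5:89884732-89884770 (+ strand): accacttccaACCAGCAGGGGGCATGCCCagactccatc
Intra-TAD anchor upstream of Gc, chr5:89929397-89929435 (− strand): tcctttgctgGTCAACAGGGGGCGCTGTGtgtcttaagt
CTCF site at the Gc start, chr5:89886766-89886790 (− strand): gtgGCCGGCAGGTGAGAGGAGGtgc
The first and the fifth of these read on the + strand, and the others on the − strand. The 22 matches were 22 different sequences, so no match was identical to another. Whether any sites arose by duplication and then changed was not tested. The deposited motif score, a log-odds score, was 12.3 at the + anchor upstream of Alb and 10.9 and 18.4 at the − anchors in Afp introns 3 and 7. It was 16.2 and 18.5 at the intra-TAD anchors of Gc and 7.98 at the Gc start, where the class list ranged from 7.77 to 27.5.

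CNC peaks next to the 4 starts are shown with 100 bases on each side of the summit, 5′ to 3′ on the + strand of mm9. Capitals mark short letters known from binding sites of liver transcription factors, searched on both strands, namely GTTAAT (a half-site of HNF1), TGTTTAC (FOXA), TTGCNNAA (C/EBP) and CAAAGTCC (HNF4A).
CNC peak upstream of Alb, chr5:90886356-90886556 (+ strand): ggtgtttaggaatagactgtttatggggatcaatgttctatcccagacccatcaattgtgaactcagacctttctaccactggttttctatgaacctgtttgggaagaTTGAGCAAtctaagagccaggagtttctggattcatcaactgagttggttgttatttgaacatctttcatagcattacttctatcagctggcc
CNC peak upstream of Afp, chr5:90914793-90914993 (+ strand): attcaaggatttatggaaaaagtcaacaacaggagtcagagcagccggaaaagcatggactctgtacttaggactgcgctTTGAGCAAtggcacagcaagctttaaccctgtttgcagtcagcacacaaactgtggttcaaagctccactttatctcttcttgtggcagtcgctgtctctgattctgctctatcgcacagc
CNC peak in Afm intron 1, chr5:90948968-90949168 (+ strand): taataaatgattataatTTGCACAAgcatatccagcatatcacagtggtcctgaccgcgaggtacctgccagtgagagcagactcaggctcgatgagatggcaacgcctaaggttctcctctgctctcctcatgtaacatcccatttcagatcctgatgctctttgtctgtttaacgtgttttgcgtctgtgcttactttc
CNC peak upstream of Gc, chr5:89888217-89888417 (+ strand): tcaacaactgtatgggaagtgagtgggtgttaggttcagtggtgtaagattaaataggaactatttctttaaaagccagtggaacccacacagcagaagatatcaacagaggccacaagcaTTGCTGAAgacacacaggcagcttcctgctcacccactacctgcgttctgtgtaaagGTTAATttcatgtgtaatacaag
Each of these windows held the C/EBP letters once, and the one upstream of Gc held those of HNF1 too. Over the 24 CNC peaks of both loci the C/EBP letters were in 7 (29.2%, 95% Wilson interval 14.9 to 49.2), against 11.7% of all 15321 CNC peaks and 7.83% of Rad21 peaks with CTCF. In the Alb-Afp-Afm locus alone they were in 4 of 17 (23.5%, 9.56 to 47.3), an interval that holds the share of all CNC peaks. The HNF1 letters were in 2 of the 24 (all CNC peaks 5.66%), the HNF4A letters in 1 (2.41%) and the FOXA letters in 0 (4.32%). The window at the peak 10.8 kb upstream of Alb and 14 others held none of the 4. A match gives letters in a window and does not show that the factor binds there.

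The Alb start stood between an anchor pointing towards it from either side. The + anchor upstream had its CTCF summit 55.5 kb before the start, a CTCF score of 2869 (303 fragments at the summit, 95% exact Poisson interval 270 to 339) and a Rad21 score of 2664 (298 fragments, 265 to 334). Such intervals cover counting error only. The Rad21 peak was the strongest of the locus and 96.8% of all Rad21 peaks scored at most as high. On the downstream side the nearest − anchor lay 33.7 kb from the Alb start and inside Afp, in intron 3, with a CTCF score of 1736 and a Rad21 score of 361. The second − anchor, in Afp intron 7, was the strongest CTCF peak of the locus with a score of 5309 (526 fragments, 482 to 573) and a Rad21 score of 1498. Afp is the fetal member, and both of its CTCF peaks were these anchors.

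The TAD anchors lay farther out in pairs whose motifs pointed away from each other. The pair upstream of Alb consisted of a − site 77.5 kb before the start, with a CTCF score of 1425 and a Rad21 score of 396, and a + site 65.1 kb before it, with a CTCF score of 322 and a Rad21 score of 36. The latter site carried none of the 3 flags of the class list. Beyond Afm, a − site 70.2 kb after the Afm start had a CTCF score of 3855 and a Rad21 score of 1340, and a + site 82.8 kb after it had scores of 1989 and 147. Rad21 at this + site was low for its CTCF, since the ratio of the scores was 0.0739 against a median of 0.433 over 51621 co-bound CTCF peaks, and 5.05% of them had a ratio at most as high. The last anchor of the window was an intra-TAD anchor on the − strand with a CTCF score of 2529 and a Rad21 score of 2121. Outside the window the nearest anchors were an intra-TAD anchor on the − strand in an intron of Ankrd17, 74.2 kb before its edge, and an intra-TAD anchor on the + strand 8.08 kb past the other edge.

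The interval from the + anchor to the first − anchor, 89.2 kb long, held the start and the whole span of Alb and the start of Afp. It contained 7 CTCF peaks besides the anchors, with scores from 32 to 107 and a median of 61, of which 1 was in the class list. It also contained 12 Rad21 peaks besides those of the anchors, with scores from 31 to 243, of which 8 were CNC. The density of CNC peaks in it was 89.6 per Mb, against 5.77 per Mb over the genome. CTCF was thus far stronger at both edges than inside, whereas Rad21 was far stronger than inside only at the upstream edge. At the downstream edge Rad21 had 75 fragments (59.0 to 94.0) and a fold of 6.78, and the highest Rad21 peak inside had 51 fragments (38.0 to 67.1) and a fold of 6.49.

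Upstream of Alb, 2 CNC peaks were found within 20 kb of the start. Their summits lay 10.8 kb upstream (score 73, 32 fragments, 21.9 to 45.2) and 3.46 kb upstream (score 88, 33 fragments, 22.7 to 46.3). Within the gene there were 2 more, in coding exon 8 (score 38, 27 fragments) and in intron 12 (score 32, 28 fragments). The peaks upstream were closer to the middle of all Rad21 peaks, at percentiles 23.9 and 30.7 of the score, than those in the gene, at 4.41 and 1.93. The local background, an estimate of the fragments due without a peak, was 9.66 and 11.1 fragments at the peaks in the gene and 8.67 and 8.00 at those upstream, against a median of 7.42 at all CNC peaks. Alb is among the most transcribed genes of liver, and no value of an input library is in the lists, so the part of that background in the weak peaks within the gene was not tested.

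The only CTCF peak within Alb was in intron 6 with a score of 84 (32 fragments), 6.11 kb after the start, without Rad21 and absent from the class list. Farther upstream, a Rad21 peak 21.5 kb before the Alb start had a score of 243 (51 fragments, 38.0 to 67.1) over a CTCF peak of only 43 (21 fragments). The Rad21 score was 5.65 times the CTCF score there, and 98.8% of co-bound CTCF peaks had a ratio at most as high. By the 1 bp rule it counts as co-bound, although 4.63% of all CTCF peaks were at most as strong as its CTCF peak.

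Afp, which adult liver keeps nearly silent, had beside it the CNC peak with the highest score and fold of both loci. Its summit was 4.85 kb upstream of the Afp start, with a score of 162 (39 fragments, 27.7 to 53.3) and a fold over local background of 5.53, and it stood at percentile 49.7 of all Rad21 peaks and above the upper quartile of CNC peaks (95). By fragments this peak did not stand apart, since the CNC peak 8.32 kb upstream of Afm had 40 (28.6 to 54.5). The span of Afp held 0 CNC peaks and 2 Rad21 peaks, those of the anchors in introns 3 and 7. The nearest Rad21 peak to the start was the one of intron 3, 3.88 kb downstream. The list says where Rad21 was bound in whole liver, and bound alleles in few cells cannot be told apart from weak binding in all cells.

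Around the start of Afm, CTCF and cohesin were both weak. The nearest CTCF summit was 0.315 kb upstream with a score of 116, absent from the class list, and the Rad21 peak over it had a score of 30, and 1.34% of all Rad21 peaks scored at most as high. CNC peaks lay 8.32 kb upstream (score 130, 40 fragments, 28.6 to 54.5), 1.11 kb downstream in intron 1 (score 99, 36 fragments) and in coding exon 13 (score 53, 28 fragments). The peak in intron 1 exceeded that at the start by score, but their fragment intervals (25.2 to 49.8 and 14.6 to 34.5) overlap. No CTCF peak overlapped the span of Afm. Between the + anchor upstream of Alb and the − TAD anchor beyond Afm, 184 kb apart, there were 15 CNC peaks. Of these, 3 had their summit in 5830473C10Rik, the gene next to Afm, with scores from 37 to 113. A further CNC peak with a score of 58 overlapped the start of that gene. Its summit was at base 90990236 of chromosome 5 and the start at base 90990244. Whether 5830473C10Rik belongs to the albumin family was not tested, and it was not taken as a member. Another Rad21 peak with a score well above that of its CTCF peak, 185 against 38, was found 41.9 kb after the Afm start, and 98.4% of co-bound CTCF peaks had a ratio at most as high.

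**Figure D2:**
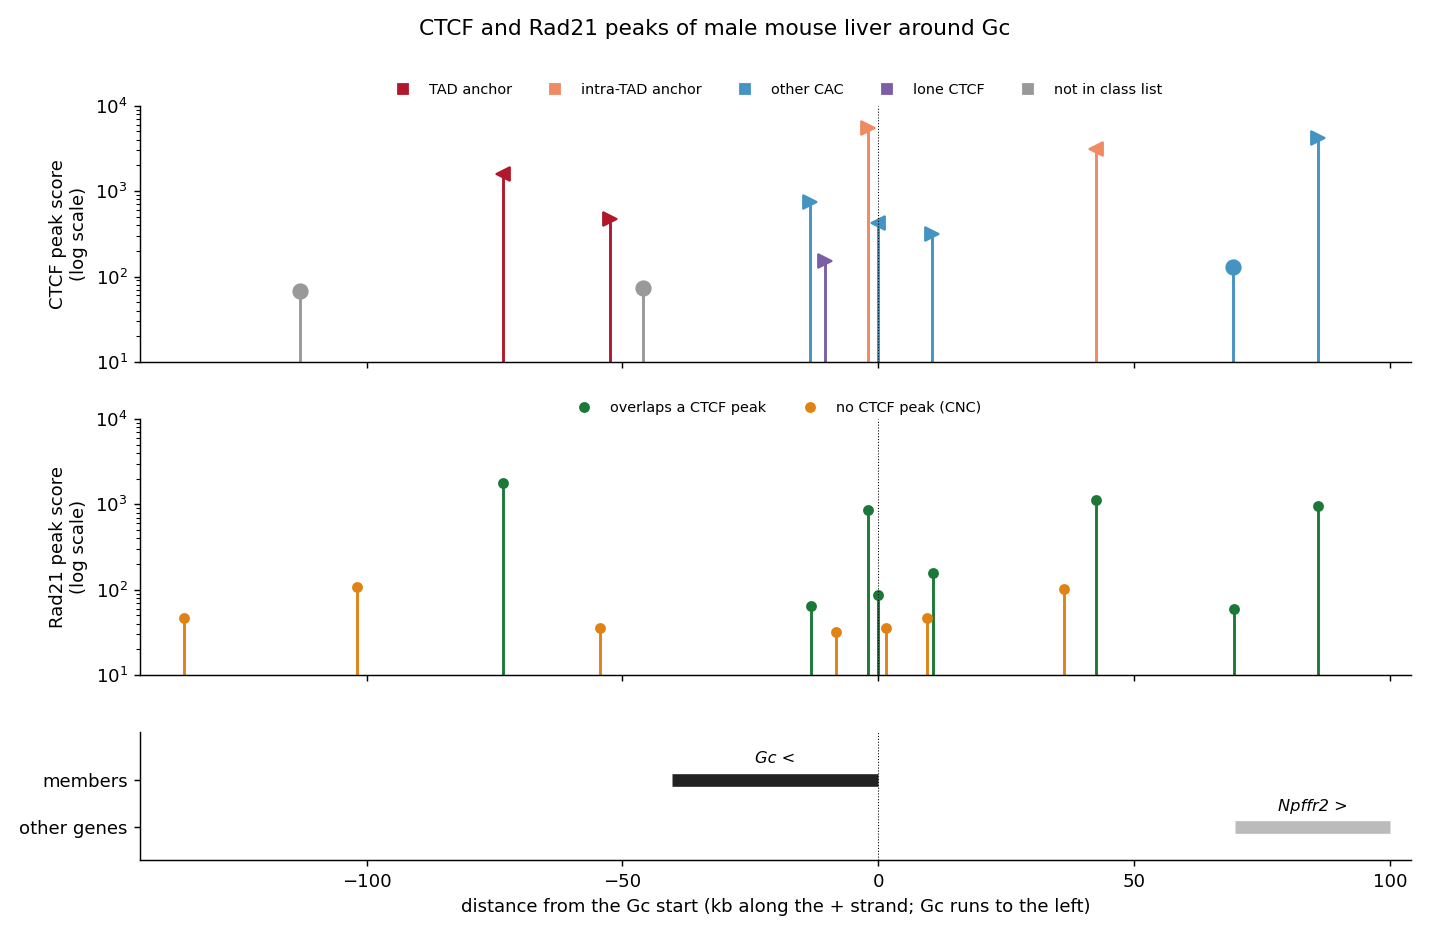
Pooled CTCF peaks (upper panel, coloured by class, arrowheads for the strand of the deposited motif and circles for peaks without one) and Rad21 peaks (middle panel, green where a CTCF peak overlaps and orange for CNC) along the Gc locus. The horizontal axis is the distance from the Gc start in kb along the + strand with Gc running to the left, and the vertical axes are peak scores on a log scale. The strongest CTCF peak of the locus, with a score of 5417, stood in intron 1 close to the start.

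At Gc, unlike at Alb and Afp, CTCF and cohesin lay at the start of the gene. A CTCF peak with a score of 419 (129 fragments, 108 to 153) had its summit 3 bp inside the start as GENCODE gives it, in an exon of the untranslated region, with a Rad21 peak of 86 (49 fragments, 36.3 to 64.8). The matrix match printed for it spans bases 4 to 22 of that transcript. RefSeq places the Gc start farther upstream, at base 89886923 of chromosome 5, which makes the distance to the CTCF summit 136 bp. The site was an other CAC site, a class for sites with cohesin and CTCF that are not anchors. The strongest CTCF peak of the locus was the intra-TAD anchor on the + strand in intron 1, 2.05 kb from the start, with a CTCF score of 5417 (594 fragments, 547 to 644) and a Rad21 score of 847. Upstream of Gc, an intra-TAD anchor on the − strand 42.6 kb away had scores of 3100 and 1115. The Gc start therefore also lay between a + and a − anchor, but the + anchor is inside the gene, so the interval of 44.7 kb left out most of the gene body.

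Within that interval there were 2 other CTCF peaks (scores 314 and 419) and 5 Rad21 peaks, of which 3 were CNC. These were 1.53 kb (score 36, 37 fragments), 9.53 kb (score 47, 25 fragments) and 36.2 kb (score 101, 31 fragments) upstream of Gc. The local background at the first was 16.0 fragments, against 7.42 at the middle of all CNC peaks, and its fold was 2.24. The strong anchor in intron 1 lies close by, and its part in that background was not tested. In the gene, intron 1 also held a CNC peak (score 32) and a lone CTCF site (score 153, no Rad21), and intron 3 an other CAC site with CTCF 735 and Rad21 65. The TAD anchors of this locus lay beyond the far end of Gc. The − site, 73.3 kb from the start, was bound by both (CTCF 1598, Rad21 1758), whereas the + site, 52.5 kb from the start, had a CTCF score of 468 and no Rad21 peak in the pooled list, although its Stag1 and Stag2 flags were set. Outside the window the nearest anchors were a TAD anchor on the + strand 526 kb from one edge (CTCF 4361, Rad21 2212) and a TAD anchor on the − strand 123 kb from the other (CTCF 903, Rad21 361), in an intron of Adamts3. Upstream of Gc, an other CAC site in intron 1 of Npffr2, a neuropeptide receptor gene, had a CTCF score of 4189, higher than 10 of the 12 anchors of both loci.

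Over both loci, 29 of 38 CTCF peaks overlapped a Rad21 peak (76.3%, 95% Wilson interval 60.8 to 87.0), where 67.3% of all CTCF peaks did. The Alb-Afp-Afm locus had 21 of 26 and the Gc locus 8 of 12. The other direction was less usual. Of 52 Rad21 peaks, 24 had no CTCF peak (46.2%, 33.3 to 59.5), and over the whole list that share was 22.7%. It was 17 of 37 in the Alb-Afp-Afm locus (45.9%) and 7 of 15 in the Gc locus (46.7%). With score minimums of 100 for both factors the share was 32% in the loci and 15.5% over the lists. Peaks at 1 locus share their surroundings and are not replicates, so these intervals describe counting only.

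The scores of CNC peaks of the loci ran from 31 to 162 with a median of 58, and the median over all CNC peaks was 65. They had 18 to 40 fragments at the summit and a median of 28.5, against 29. Of the 17 in the Alb-Afp-Afm locus 9 were above the median of all CNC peaks, and of the 7 in the Gc locus 2. None lay within 1 kb of a member start. The median score of Rad21 peaks with CTCF was 170.5 in the Alb-Afp-Afm locus and 501.5 in the Gc locus, against 245 over the whole list.

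Their number was high among genes. The window of Alb (its span and 100 kb on each side) held 15 CNC peaks, that of Afp 16, that of Afm 15 and that of Gc 7, while the median of 22380 protein-coding genes was 1 (quartiles 0 and 4), and 0.402%, 0.264%, 0.402% and 9.37% of genes had at least as many. Since the windows of Alb, Afp and Afm overlap, their counts are largely the same peaks. Per Mb of window the values were 69.5, 73.3, 63.9 and 29.1, and 0.0581%, 0.0402%, 0.156% and 8.27% of genes had at least as high a density, with the members and their neighbours counted among these genes. With a score of at least 100 for both factors, an alternative chosen after seeing the data, both loci held 8 CNC peaks in place of 24. Of these, 6 were among the 24, and the other 2 were the Rad21 peaks of 243 and 185, whose CTCF peaks of 43 and 38 fell under the minimum. The windows then held 5, 6, 6 and 2, the median gene 0 and the upper quartile 1, and 4.56%, 2.27%, 2.27% and 24.9% of genes had at least as many. By count over all peaks, total Rad21 peaks ranked lower, at 30, 31, 30 and 15 against a median of 11, and 2.90%, 2.31%, 2.90% and 35.8% of genes had at least as many. For CTCF the counts were 21, 20, 18 and 12 against a median of 13 and an upper quartile of 20, and 23.4%, 26.7%, 33.6% and 55.9% of genes had at least as many. The nearest CNC summit was 3.46, 4.85, 1.11 and 1.53 kb from the starts of Alb, Afp, Afm and Gc, against a median of 65.6 kb. In the same order, 10.4%, 11.6%, 7.30% and 8.20% of genes had a CNC summit at most as far.

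**Figure D3:**
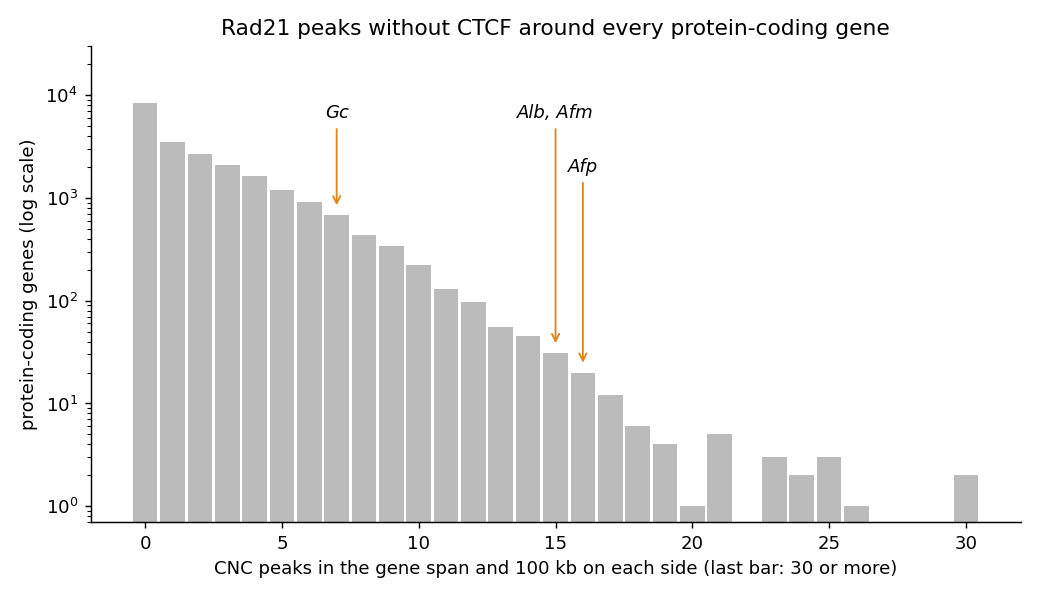
Number of CNC peaks in the span of each protein-coding gene and 100 kb on each side (horizontal axis, last bar 30 or more) against the number of genes (vertical axis, log scale). Arrows mark Gc at 7, Alb and Afm at 15 and Afp at 16, where the median gene has 1.

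Other clusters of genes for secreted liver proteins were set beside these loci by the same rule, as values only. CNC density was 24.8 per Mb around the fibrinogen genes (Fga, Fgb and Fgg), 41.1 around Apoa1, Apoc3, Apoa4 and Apoa5, and 22.1 around the 22 Serpina genes of chromosome 12. In the Alb-Afp-Afm locus it was 58.1 and in the Gc locus 29.1. The share of Rad21 peaks without CTCF in these clusters was 40%, 29.4% and 37.3%. The 4 densities of the clusters and of Gc all exceeded 5.77 per Mb, the value of the genome.

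Facing anchors were compared over all genes as well. The length from the nearest + anchor on the left of the start to the nearest − anchor on its right was 89.2 kb for Alb and Afp, 184 kb for Afm and 44.7 kb for Gc, whereas the median over 21973 genes was 345 kb (quartiles 153 and 896 kb), so that of Afm lay between the quartiles. The share of genes with an interval at least as long was 87.3%, 70.0% and 95.7%. The nearest anchor of either strand was 33.7, 3.90, 18.0 and 2.05 kb from the starts of Alb, Afp, Afm and Gc, against a median of 36.3 kb, and 48.2%, 12.4%, 33.8% and 8.71% of genes had one at most as far. The facing anchors are the nearest ones of the right strands and not the loop pairs of the study, which were not used here.

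**Figure D4:**
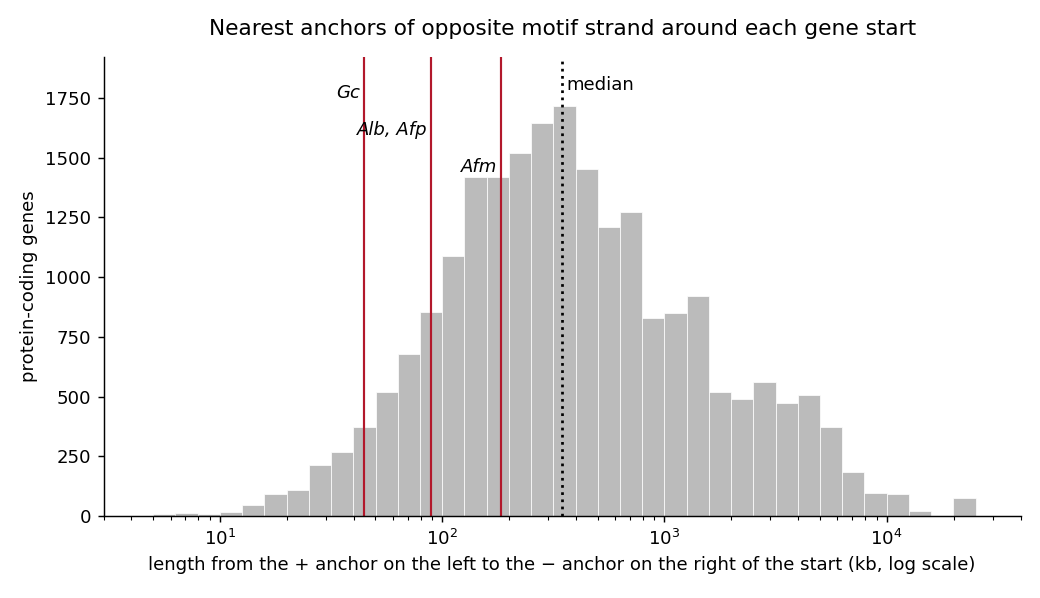
Length between the nearest anchor with a + motif on the left and the nearest with a − motif on the right of each protein-coding gene start (horizontal axis, kb, log scale) against the number of genes (vertical axis). Red lines mark Gc (44.7 kb), Alb and Afp (89.2 kb, the same interval) and Afm (184 kb), all shorter than the dotted median of 345 kb.

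Among the 27 classified sites, 6 were TAD anchors (22.2%, 95% Wilson interval 10.6 to 40.8) and 6 intra-TAD anchors (22.2%), where the whole list had 11.2% and 17.3%. Another 10 were other CAC sites (37.0%, 21.5 to 55.8, whole list 51.4%) and 5 lone CTCF sites (18.5%, whole list 20.1%). The value of the whole list lay within the interval of the loci for each of the 4 classes. A motif was deposited for 22 of 27 (whole list 82.6%), of which 12 were on the + strand (whole list 49.9%). The median motif score was 13.3, lower than the 16.0 of the whole list.

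The class list also flags overlap with public peaks of Stag1 and Stag2, alternative subunits of cohesin, and of Top2b, a topoisomerase found beside CTCF. Stag1 was set at 18 of 27 sites (whole list 70.6%), Stag2 at 21 (88.1%) and Top2b at 15 (54.8%). All 3 flags were set at 12 sites and none at 4. Of the 12 anchors, 8 had all 3 flags. The + TAD anchor upstream of Alb had no flag, the − anchor in Afp intron 3 had Stag1 only, and the − TAD anchor upstream of Alb and the + TAD anchor of the Gc locus lacked Top2b. The column order of the flags was taken from the study's description.

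The class list left out 11 of 38 CTCF peaks (28.9%, 17.0 to 44.8), close to the 31.6% of all CTCF peaks. They had scores from 32 to 116 and a median of 67, and 6 of them overlapped a Rad21 peak. All but 2 were in the Alb-Afp-Afm locus, where they include the CTCF peaks in Alb intron 6 and at the Afm start. A further 2 sites classed as lone CTCF, 13.2 kb upstream of Alb and in an intron of 5830473C10Rik, overlapped Rad21 peaks of 130 and 40 in the pooled list.

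**Figure D5:**
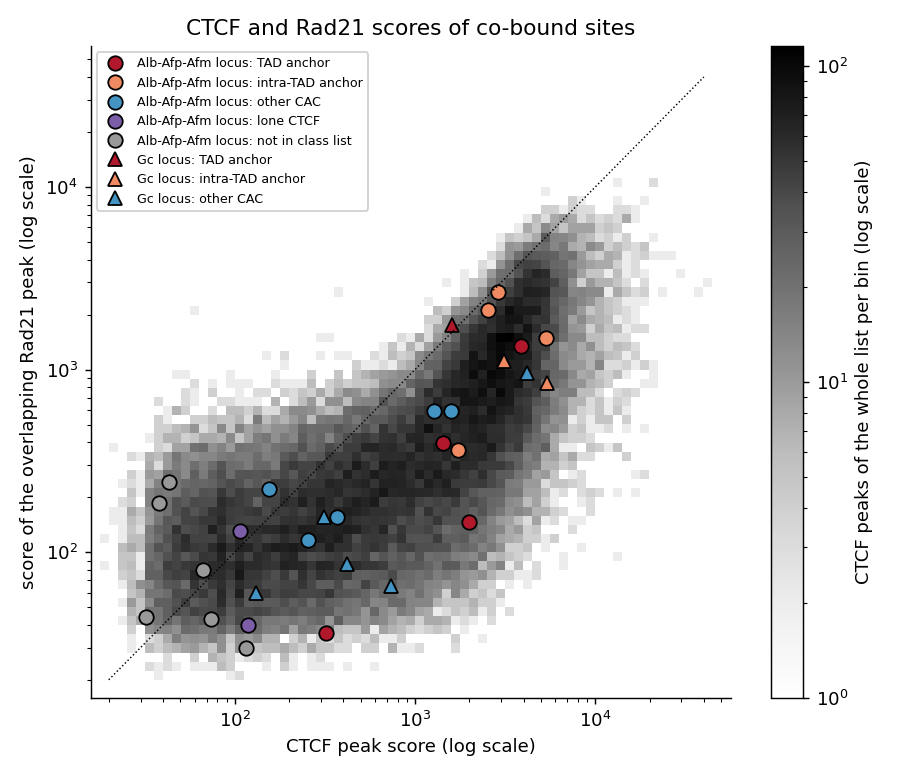
CTCF score (horizontal axis, log scale) and score of the overlapping Rad21 peak (vertical axis, log scale) for co-bound sites of the Alb-Afp-Afm locus (circles) and the Gc locus (triangles), coloured by class, over the density of all 51621 co-bound CTCF peaks in grey, with equal scores dotted. The unclassed sites with Rad21 scores of 243 and 185 lie far above the line and the TAD anchor with a CTCF score of 1989 and a Rad21 score of 147 far below it.

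The median ratio of the Rad21 to the CTCF score was 0.453 at 21 sites of the Alb-Afp-Afm locus and 0.294 at 8 sites of the Gc locus, against 0.433 for all. The ratio ran from 0.0739 to 5.65 in the first and from 0.0884 to 1.10 in the second. Depths of the libraries enter such a ratio, so only its place among all sites can be read.

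The letters of the promoters are shown to compare the members. The 150 bases before each start are printed 5′ to 3′ on the gene strand, from RefSeq promoters of build GRCm38.p6, with the letters listed above in capitals.
Alb promoter: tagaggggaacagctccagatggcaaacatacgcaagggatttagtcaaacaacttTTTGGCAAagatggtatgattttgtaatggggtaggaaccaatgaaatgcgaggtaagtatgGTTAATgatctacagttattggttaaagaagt
Afp promoter: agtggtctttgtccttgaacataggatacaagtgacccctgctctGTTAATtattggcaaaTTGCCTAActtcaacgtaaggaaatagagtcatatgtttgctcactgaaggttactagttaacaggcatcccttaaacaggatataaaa
Afm promoter: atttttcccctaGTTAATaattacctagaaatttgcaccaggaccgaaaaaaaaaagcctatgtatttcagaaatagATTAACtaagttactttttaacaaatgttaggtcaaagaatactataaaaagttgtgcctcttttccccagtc
Gc promoter: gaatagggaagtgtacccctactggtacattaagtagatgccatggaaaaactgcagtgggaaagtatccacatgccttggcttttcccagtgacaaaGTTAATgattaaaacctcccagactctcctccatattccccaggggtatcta
The HNF1 letters were in all 4 promoters (250 bases before to 50 after the start), and 7.10% of 32851 promoters hold them. The C/EBP letters were in those of Alb and Afp, with 10.8% of all promoters. Neither the FOXA letters (3.65%) nor the HNF4A letters (1.42%) were found in the 4. Each RefSeq sequence matched build mm9 exactly once, at the GENCODE start for Afp, 19 bp before it for Alb, 17 bp after it for Afm and, as above, upstream of it for Gc. The nearest Rad21 summit to the RefSeq starts was 3440, 3883, 294 and 172 bp away for Alb, Afp, Afm and Gc, and the nearest CTCF summit 6127, 3900, 332 and 136 bp.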

How the data were processed

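ChIP-seq was performed on male liver with 4 CTCF and 3 Rad21 libraries. As the methods state, reads of each factor were merged by the authors and mapped to mm9 with Bowtie2, and peaks were called with MACS2. The deposited score is 10 times the −log10 q-value, the deposited fold is a ratio of summit fragments to local background with 1 added to both, and −log10 p is deposited too. The deposited motif score is a log-odds score, and the authors kept in the class list only CTCF peaks seen in at least 2 livers. Library depths are not in these pooled lists. Summit fragments were recovered from fold and −log10 p (whole within 0.05 at all 38 CTCF and 52 Rad21 peaks of the loci). Overlap required 1 bp. Computations were tested on simulated data. Members and lists were chosen with earlier results of these data known. Described by name are every anchor, the strongest peaks, every CTCF peak in a member gene and every CNC peak in a member gene or up to 20 kb upstream. No test between groups was possible, so values are shares with 95% Wilson intervals or places among all peaks or genes. Windows of 50 and 200 kb, a score minimum of 100, other overlap rules, placement by summit and strength by fold were tried. Python 3.11.15, NumPy 2.4.6, pandas 2.3.3, SciPy 1.17.1, Matplotlib 3.10.9, pysam 0.24.0 and samtools 1.23.1 were used.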

Additional observations from a re-analysis of the deposited data

How the results depend on the processing

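Of 39 alternatives 27 left the value within its counting interval, the same peak or 1.5 times the count, and 12 did not. With windows of 50 kb the loci held 16 classified sites in place of 27, and with windows of 200 kb 22 CTCF peaks were absent from the class list in place of 11. With a score of at least 100 for both factors, 25 Rad21 peaks remained in place of 52 (46.9 per Mb in place of 97.6), their median score was 222 in place of 93.5, 1 unclassed CTCF peak remained, and the nearest CTCF peak to the Alb start was 13159 bp away in place of 6108 bp. CNC peaks then numbered 8 in place of 24 (6 in place of 17 in the Alb-Afp-Afm locus), 2 of them Rad21 peaks whose CTCF peak fell under the minimum, an alternative added after seeing the data, and the share of Rad21 peaks without CTCF was 32% (whole list 15.5%). Taking summits within 100 bp as co-bound gave 55.3% of CTCF peaks with Rad21 (whole list 55.5%) and 59.6% of Rad21 peaks without CTCF (whole list 36.8%), and a reciprocal overlap of 50% gave 60.5% and 55.8% (whole list 58.2% and 33.7%). The share of Rad21 peaks without CTCF was thus above that of the whole list under each of these rules, while the share of CTCF peaks with Rad21 was not. No paired analysis was possible because the lists hold pooled peaks and no value per replicate, and for the same reason leaving out single replicates was not run. CNC peaks of the loci rest on 18 to 40 fragments at the summit, and the effect of depth on them was not tested.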
